A study of Arabidopsis thaliana with 16 samples.

Results

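Whole seedlings of Arabidopsis thaliana kept in ethanol vapour for 3 d were compared with seedlings kept in it for 1 d, over 8 of the 16 RNA libraries of the series. The members were chosen by their labels alone, as all 4 libraries of EtOH_3d and all 4 of EtOH_1d. Seedlings were raised on agar plates at 22 °C under long days, and the 1 d exposure began at an age of 13 d and the 3 d exposure at an age of 11 d. Both groups received ethanol, so the contrast holds the length of exposure and the age at its start, which cannot be told apart. The sources used here do not state the ethanol concentration, the plant line or the clock time of harvest. The series title speaks of freezing stress, but no label gives a cold step for these libraries. The labels do not tie replicates to separate plates, and every p-value therefore reflects only how far these libraries lie apart, which may be technical. Control seedlings, labelled moc, were sampled at the same 2 durations and are used only for values set beside those of the ethanol seedlings.

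Plants that run short of sugar switch on a set of genes for the reuse of cell walls, amino acids and stored carbon, under the kinase SnRK1 and its partner bZIP factors, and sugar represses the same genes. The BT proteins, with a BTB and a TAZ domain, are adaptors of cullin-based ubiquitin ligases, and their transcripts respond to sugar, light and nitrate. Jasmonate, a hormone of wounding and defence, acts by the destruction of JAZ repressors, which frees MYC2 and related factors, and JAZ genes are among the first genes that those factors switch on. Ethanol is oxidised in plant cells by alcohol dehydrogenase and aldehyde dehydrogenases to acetate.

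The libraries held 5659976 to 15943927 counts at 1 d and 3695511 to 6340751 at 3 d, so that 3 counts correspond to 0.188 to 0.812 counts per 1000000 (CPM). The libraries at 1 d were the deeper ones on average, with an overlap of the groups and a two-sided exact permutation p of 0.0857, where 4 libraries against 4 allow no p below 0.0286. The shallowest library, replicate 2 of EtOH_3d, stood apart on the first principal component, which held 21.6% of the variance. Root markers summed to 1413 to 1749 CPM at 1 d and 1406 to 1515 CPM at 3 d, and green shoot markers to 119266 to 130522 CPM and 121979 to 130267 CPM, with exact permutation p of 0.143 and 0.8. In RNA from whole seedlings, fewer cells of a type and less RNA per cell cannot be told apart.

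Of 17470 genes tested with edgeR, 211 passed an adjusted p of 0.05, which is 1.21% of them. These 211 are called changed here, and 145 of them (0.83% of the genes tested) were higher at 3 d and 66 (0.378%) lower. The changes were small, with a median size of 0.498 on the log2 scale, and 10 genes rose and 2 fell by at least 1 on that scale. The levels of the 8 libraries did not overlap between the groups for 195 of the 211 genes, against 5.96% of all genes tested. In fits that left out each library in turn, 96 genes kept their call every time, 71 of them higher and 25 lower.

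**Figure D1:**
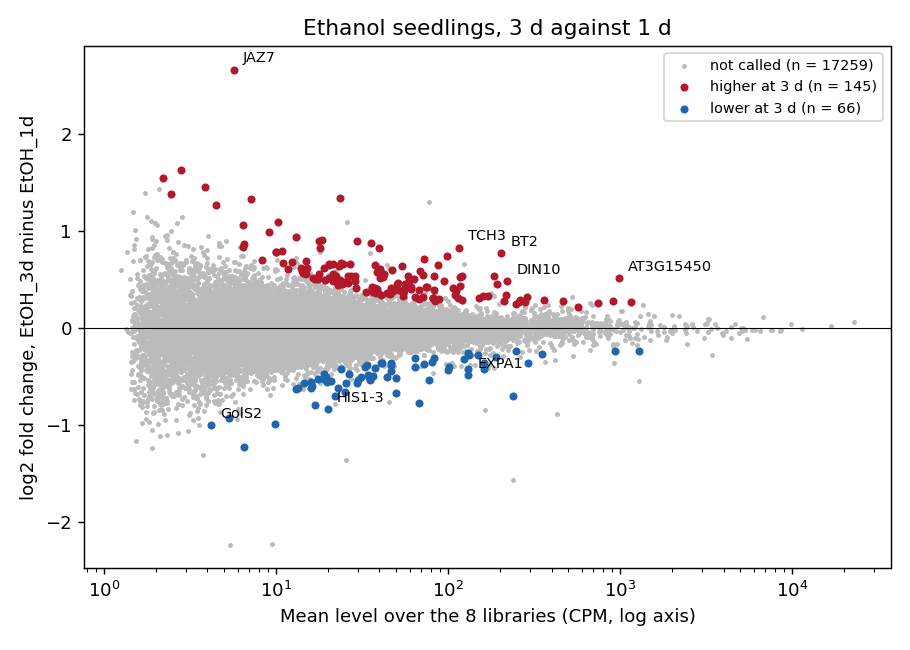
Mean level over the 8 libraries (CPM, log axis) and log2 fold change between EtOH_3d and EtOH_1d for the 17470 genes tested. Red points are the 145 genes called higher at 3 d and blue points the 66 called lower; JAZ7 lies highest and most called genes lie within 1 of the zero line.

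The list with the largest share of rises held genes that sugar shortage is known to switch on. Lists were chosen with earlier results of these data known, so their shares are descriptions. Of 25 listed members, all tested, 10 rose and none fell, against 0.83% of all genes that rose, and the median difference of the list was 0.30 on the log2 scale against 0.00 for all genes. The 10 were BT2, AT3G15450, TPS8, DIN10, BGAL4, TPS11, bZIP1, STP1, BXL1 and DYL1. Left-out libraries gave 8 to 11 of the 25 as higher, with 9 when the shallow replicate 2 of EtOH_3d was left out.

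BT2 (AT3G48360, chromosome 3, 17907767 to 17910738) had the smallest p of all genes. Its level was 136, 150, 154 and 161 CPM in the 4 libraries of 1 d and 277, 268, 261 and 222 CPM in those of 3 d. Every library of 3 d lay above every library of 1 d, and the log2 fold change was 0.77 ± 0.07 (SE) with an adjusted p of 1.51e-10. Further members of its family, BT1, BT5 and BT4, rose as well, while BT3 at 2.03 ± 0.61 and 2.24 ± 0.65 CPM (SD, n = 4) did not pass the test. BT1 (AT5G63160), which also stands on the nitrate list, went from 82.0, 67.1, 77.4 and 67.9 CPM to 118, 137, 127 and 114 CPM, a log2 fold change of 0.74 ± 0.08 with an adjusted p of 5.08e-09. BT5 (AT4G37610) went from 54.9 ± 3.9 to 83.3 ± 9.8 CPM and BT4 (AT5G67480) from 31.2 ± 2.6 to 46.5 ± 6.0 CPM, with log2 fold changes of 0.59 ± 0.08 and 0.58 ± 0.10. The family was singled out after its values were seen. BT5 and BT4 each overlap a gene on the other strand, and whether the counting used strand is not stated in the sources used here. Reads of such pairs may therefore be shared.

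The promoters of the 4 BT genes that rose are shown because these genes moved together, and that of AT3G15450 because it had the second smallest p on the sugar list. Each runs from 250 bases before to 50 bases after the annotated start in RefSeq's TAIR10.1, 5′ to 3′ on the gene's own strand. Capitals mark matches on either strand to TATCCA, known from rice amylase promoters that respond to sugar shortage, to AAATATCT, which is the evening element of clock-controlled genes without its leading A, to CACGTG, the G-box, and to CCGAC, the core of the cold-responsive DRE. The windows are chr3:17910689-17910988 minus strand for BT2, chr5:25335521-25335820 minus strand for BT1, chr4:17672304-17672603 minus strand for BT5, chr5:26933303-26933602 minus strand for BT4 and chr3:5212734-5213033 plus strand for AT3G15450.
BT2: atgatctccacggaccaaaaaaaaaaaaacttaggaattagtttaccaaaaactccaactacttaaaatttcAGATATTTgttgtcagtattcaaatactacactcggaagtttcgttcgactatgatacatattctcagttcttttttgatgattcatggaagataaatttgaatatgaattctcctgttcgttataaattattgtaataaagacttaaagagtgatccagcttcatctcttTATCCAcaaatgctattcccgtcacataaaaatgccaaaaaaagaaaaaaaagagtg
BT1: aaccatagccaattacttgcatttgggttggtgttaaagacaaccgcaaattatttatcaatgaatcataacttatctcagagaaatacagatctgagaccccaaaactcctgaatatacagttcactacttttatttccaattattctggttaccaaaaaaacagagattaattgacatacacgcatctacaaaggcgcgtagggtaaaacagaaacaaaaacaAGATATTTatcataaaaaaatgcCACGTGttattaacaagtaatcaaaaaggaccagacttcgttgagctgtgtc
BT5: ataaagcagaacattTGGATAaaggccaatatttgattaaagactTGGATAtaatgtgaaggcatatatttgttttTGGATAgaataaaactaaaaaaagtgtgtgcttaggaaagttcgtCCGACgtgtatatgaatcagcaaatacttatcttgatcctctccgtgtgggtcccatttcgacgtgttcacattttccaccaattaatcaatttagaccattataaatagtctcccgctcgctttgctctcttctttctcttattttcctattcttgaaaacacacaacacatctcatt
BT4: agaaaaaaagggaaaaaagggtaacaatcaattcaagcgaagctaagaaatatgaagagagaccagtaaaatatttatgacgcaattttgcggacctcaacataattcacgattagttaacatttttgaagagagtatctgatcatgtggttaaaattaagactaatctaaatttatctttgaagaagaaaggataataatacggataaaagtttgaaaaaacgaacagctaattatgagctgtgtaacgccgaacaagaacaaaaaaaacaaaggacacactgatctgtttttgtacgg
AT3G15450: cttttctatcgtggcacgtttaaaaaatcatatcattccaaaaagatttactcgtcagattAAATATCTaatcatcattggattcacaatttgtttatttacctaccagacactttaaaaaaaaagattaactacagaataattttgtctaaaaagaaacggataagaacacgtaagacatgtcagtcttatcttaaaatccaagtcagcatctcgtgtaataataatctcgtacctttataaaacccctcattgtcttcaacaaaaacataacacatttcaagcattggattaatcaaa
BT2 holds TATCCA and AAATATCT, BT1 holds AAATATCT and CACGTG, and BT5 holds TATCCA and CCGAC. BT4 holds none of the letters searched in this window, and no match shown overlaps another. TATCCA stood in 28.0% of 143 promoters of genes that rose, in 23.6% of 55 promoters of genes that fell and in 16.8% of 17305 promoters of all genes tested. AAATATCT stood in 9.79%, 7.27% and 6.06% of the same promoters, and CACGTG in 8.39%, 12.7% and 8.88%. CCGAC stood in 16.1%, 18.2% and 16.5%, GCCGCC in 2.8%, 1.82% and 2.62%, and TTGACC in 16.8%, 12.7% and 14.2%. These shares are descriptions of the letters and were not tested.

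AT3G15450 (chromosome 3, 5212984 to 5214124), annotated as an aluminium-induced protein, was read at a high level in every library. It had 785, 831, 848 and 791 CPM at 1 d and 1112, 1149, 1221 and 1170 CPM at 3 d, without overlap. The log2 fold change was 0.52 ± 0.06 with an adjusted p of 2.19e-08, and the gene overlaps AT3G15460 on the other strand. DIN10 (AT5G20250), a raffinose synthase family gene that darkness switches on, had 187, 192, 200 and 162 CPM at 1 d and 278, 233, 275 and 249 CPM at 3 d. All libraries of 3 d again lay above those of 1 d, with a log2 fold change of 0.49 ± 0.07 and an adjusted p of 9.31e-06. DIN10 overlaps AT5G20260 on the other strand.

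Enzymes, carriers and regulators of sugar metabolism were among the 10. TPS8 and TPS11, class II trehalose-6-phosphate synthase proteins, went from 48.0 ± 1.7 to 69.9 ± 2.6 CPM and from 39.8 ± 3.6 to 53.0 ± 5.4 CPM. Of 7 class II genes tested only these 2 passed, against 0.83% of all genes that rose. The median of the 7 was 0.03 on the log2 scale, with 3 below 0. The call of TPS11 was lost without replicate 1 of EtOH_1d (adjusted p = 0.0658). BXL1, a beta-xylosidase of the cell wall, went from 142 ± 9.2 to 178 ± 8.1 CPM, and BGAL4, a beta-galactosidase, from 42.9 ± 3.4 to 58.7 ± 6.4 CPM. The hexose carrier STP1 went from 152 ± 3.7 to 192 ± 20 CPM, with a log2 fold change of 0.34 ± 0.07 and an adjusted p of 0.00265, and overlaps AT1G11270 on the other strand. The transcription factor bZIP1, a partner in the SnRK1 response, went from 48.2 ± 2.2 to 62.1 ± 2.1 CPM. The locus code AT5G49448 carries equal counts in every library, so the counts do not tell it apart from bZIP1. Whether the codes mark separate transcripts was not tested. BZIP53, a related factor outside the list and chosen after its values were seen, rose by 0.31 ± 0.07 and shares all its counts with AT3G62422. DYL1, a dormancy-associated gene, had a log2 fold change of 0.28 ± 0.07, and 4 of the 8 fits that left out a library did not call it.

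The remaining 15 sugar genes did not pass the test. ASN1, the asparagine synthetase of the dark response, averaged 102 and 140 CPM with an adjusted p of 0.442, and SEN1 (DIN1) averaged 157 and 200 CPM without overlap, with an adjusted p of 0.385. The genes of branched-chain amino acid breakdown IVD, MCCA and MCCB had log2 fold changes of 0.14 ± 0.10, 0.30 ± 0.14 and 0.07 ± 0.10. BCE2 (DIN3), DIN2 and DIN9 lay slightly below 0, at -0.15 ± 0.13, -0.10 ± 0.23 and -0.23 ± 0.34.

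**Figure D2:**
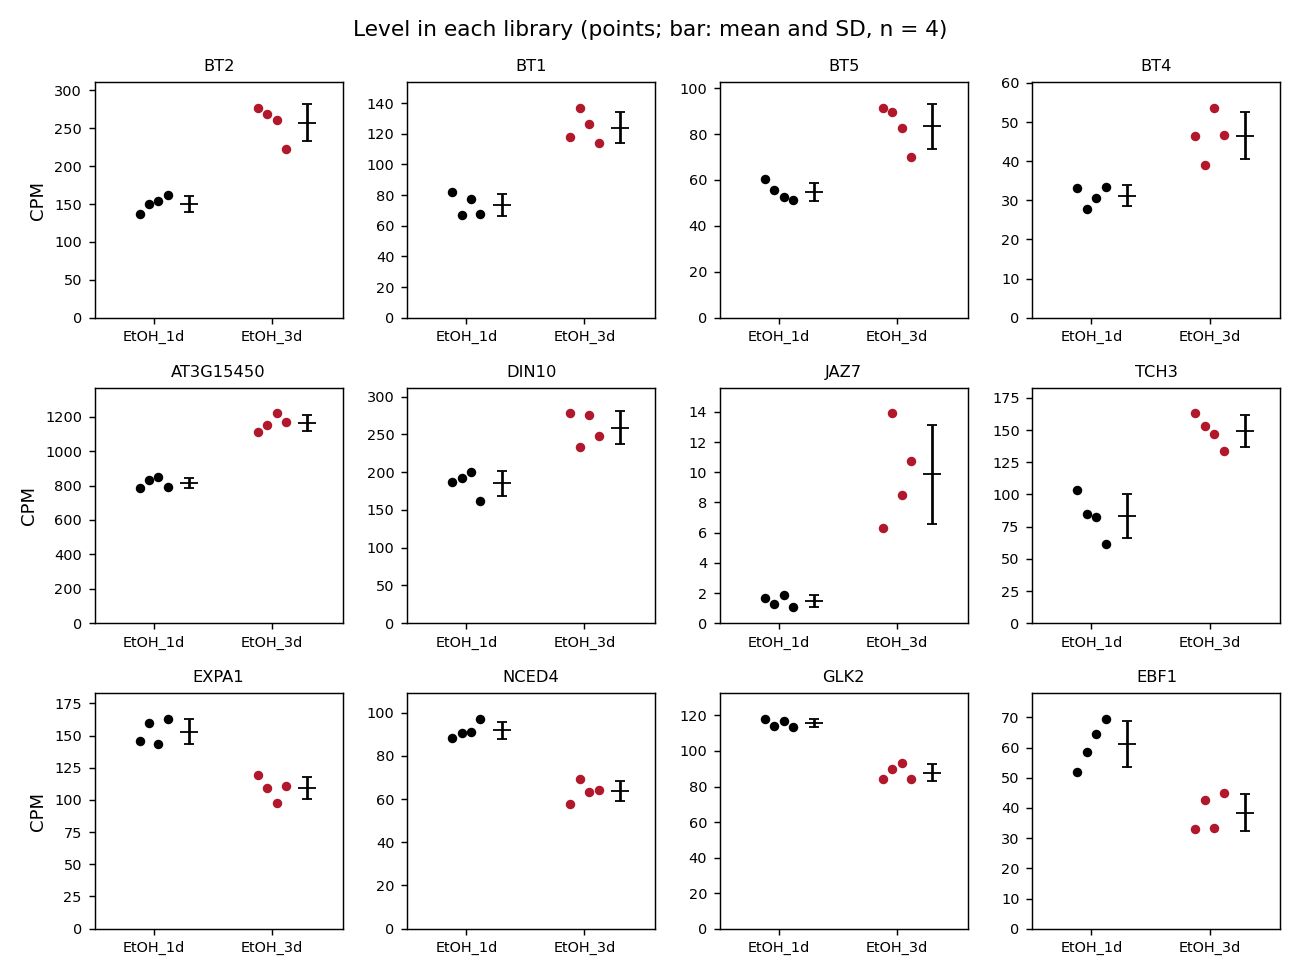
Level of 12 genes (CPM, linear axes from 0) in each of the 4 libraries of EtOH_1d (black points) and of EtOH_3d (red points), with the mean and SD of 4 libraries as a bar beside them. The groups do not overlap for any of the 12 genes, and BT2, BT1, DIN10 and AT3G15450 are among those higher at 3 d while EXPA1, NCED4, GLK2 and EBF1 are lower.

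Of 21 tested nitrate genes, 3 rose and none fell, against 0.83% of all genes that rose. The list had 17 members above 0 and 4 below, with a median difference of 0.10 on the log2 scale. Besides BT1, the 2 others were AT1G68670, from 43.1 ± 0.91 to 59.5 ± 3.0 CPM, and AT1G25550, from 97.2 ± 6.6 to 127 ± 3.1 CPM. Both are annotated as myb-like transcription factors and kept their calls without any single library. The nitrate reductase genes NIA1 and NIA2 and the nitrite reductase gene NIR1, which nitrate switches on quickly, had log2 fold changes of 0.04 ± 0.07, -0.02 ± 0.06 and 0.02 ± 0.07. NRT1.5, a nitrate transporter that loads the xylem and was named after its values were seen, fell from an average of 148 to 112 CPM, overlaps AT1G32440 on the other strand and lost its call without replicate 4 of EtOH_3d.

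Among jasmonate genes, 6 of 22 tested members rose and none fell, against 0.83% of all genes that rose, and the median difference was 0.33 on the log2 scale. The 6 were the repressors JAZ7, JAZ5, TIFY7 (also called JAZ9) and JAZ6, the lipoxygenase LOX4 and the transcription factor MYC2. JAZ7 (AT2G34600, chromosome 2, 14573030 to 14573952) had the largest rise of all called genes. Its level was 1.67, 1.26, 1.90 and 1.08 CPM at 1 d and 6.30, 13.9, 8.48 and 10.8 CPM at 3 d. The 3 d libraries spread widely among themselves but all lay above those of 1 d, with a log2 fold change of 2.67 ± 0.27 and an adjusted p of 4.8e-09. Its promoter, chr2:14572780-14573079 on the plus strand and drawn as above, holds CACGTG, the letters that MYC2 is known to bind.
JAZ7: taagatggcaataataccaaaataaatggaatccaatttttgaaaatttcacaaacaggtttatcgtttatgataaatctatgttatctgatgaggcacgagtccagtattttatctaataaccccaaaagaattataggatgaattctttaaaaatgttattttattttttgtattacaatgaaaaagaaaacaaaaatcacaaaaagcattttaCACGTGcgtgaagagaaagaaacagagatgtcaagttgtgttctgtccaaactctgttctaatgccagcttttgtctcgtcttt
TIFY7 went from 11.7, 10.8, 12.8 and 14.1 CPM to 21.7, 30.5, 20.3 and 21.4 CPM, and JAZ6 from 37.1, 31.3, 41.8 and 38.9 CPM to 48.7, 76.3, 53.1 and 52.8 CPM. In both genes replicate 2 of EtOH_3d was the highest library, and JAZ6 lost its call in the fit of 14 libraries (adjusted p = 0.227). JAZ5 and LOX4 were read near the lower limit, at 1.28 ± 0.43 and 1.33 ± 0.43 CPM at 1 d and 4.31 ± 1.9 and 3.56 ± 1.3 CPM at 3 d. JAZ5 lost its call without replicate 3 of EtOH_3d (adjusted p = 0.0806), and LOX4 in 4 of the 8 fits. The groups overlapped for MYC2, at 22.1 ± 3.2 and 32.9 ± 8.1 CPM with an adjusted p of 0.0454, and 5 of the 8 fits did not call it. MYC2 overlaps AT1G32630 on the other strand.

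Of the 6 members that rose, 4 were repressors, and other jasmonate genes did not pass the test. The storage protein gene VSP2 averaged 153 and 142 CPM and the lipoxygenase gene LOX2 122 and 106 CPM, with log2 fold changes of -0.11 ± 0.32 and -0.20 ± 0.13. The biosynthesis genes AOS, AOC2 and OPR3 had log2 fold changes of -0.06 ± 0.08, 0.17 ± 0.08 and 0.24 ± 0.11, none past the test. OPCL1, a ligase of jasmonate synthesis that is not on the list and was named after its values were seen, rose from 20.9 ± 1.0 to 29.7 ± 6.3 CPM, a call that 5 of the 8 fits lost. The count of jasmonate genes depended on the libraries and settings: 3 to 7 of 22 were higher when each library was left out in turn, 3 without replicate 3 of EtOH_3d and 5 without the shallow replicate 2. It was 3 with a minimum mean of 5 CPM or with limma-voom, and 4 in the fit of 14 libraries.

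Genes of touch, wounding and ethylene had a median difference of 0.45 on the log2 scale, and 18 of 21 tested members lay above 0. The test was passed by 4 of them, all higher, against 0.83% of all genes, namely CML38, ERF11, TCH3 and WRKY18. CML38, a calmodulin-like protein, had 9.09, 4.50, 7.12 and 4.55 CPM at 1 d and 11.1, 15.5, 14.1 and 16.1 CPM at 3 d, with a log2 fold change of 1.09 ± 0.19 and an adjusted p of 0.000438, which became 0.386 in the fit of 14 libraries. TCH3, a calmodulin-like protein that touch switches on, had 104, 85.1, 82.7 and 61.7 CPM at 1 d and 163, 153, 147 and 133 CPM at 3 d. Although its groups were far apart, its adjusted p was 0.0442 and 6 of the 8 fits did not call it. TCH4, a cell wall xyloglucan enzyme that touch also switches on, averaged 44.6 and 112 CPM without overlap, and its adjusted p was 0.151.

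The ethylene response factor gene ERF11 was read at 1.09 ± 0.24 and 3.35 ± 1.1 CPM and lost its call without replicate 4 of EtOH_3d (adjusted p = 0.144). The call of WRKY18 was lost in 7 of the 8 fits. In fits without 1 library, 2 to 5 of the 21 genes were higher, 2 with library totals and 0 in the fit of the 14 libraries of all 4 groups. ERF104, STZ (ZAT10) and RHL41 (ZAT12), rapid wound and stress factors, had log2 fold changes of 0.03 ± 0.36, 0.06 ± 0.33 and 0.09 ± 0.20.

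Other regulators among the rises came from a few families, which were singled out after their values were seen. WRKY22 went from 9.01 ± 2.9 to 17.3 ± 3.1 CPM and NAC3 (AT3G15500, one of 2 loci with this symbol) from 4.11 ± 0.94 to 8.81 ± 2.5 CPM, with log2 fold changes of 0.95 ± 0.18 and 1.07 ± 0.22. NAC3 lost its call without replicate 1 of EtOH_3d (adjusted p = 0.0754). In the WRKY family as a whole 5 of 45 tested genes rose (WRKY22, WRKY18, WRKY7, WRKY70 and WRKY15), against 0.83% of all genes. The family median was -0.02. MYB73 (AT4G37260) went from 51.9, 58.6, 59.2 and 49.8 CPM to 88.9, 99.9, 91.1 and 80.0 CPM, a log2 fold change of 0.71 ± 0.08 with an adjusted p of 4.97e-08, which became 0.109 in the fit of 14 libraries. Its close relatives MYB70 and MYBR1 rose by 0.80 ± 0.16 and 0.55 ± 0.08, while MYB77 did not pass the test. The median of these 4 genes was 0.63 in ethanol seedlings and 0.68 in controls, where none was called. MYB73 and MYBR1 each overlap a gene on the other strand.

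Cell wall and surface genes stood on both sides. Of 7 tested genes of the EXORDIUM family, named for a cell expansion gene of the brassinosteroid response, 3 rose, against 0.83% of all genes. The EXORDIUM family, too, was singled out after its values were seen. EXO went from 28.1, 26.4, 31.2 and 28.9 CPM to 58.4, 51.2, 49.0 and 45.2 CPM, with a log2 fold change of 0.82 ± 0.10 and an adjusted p of 1.05e-07. PHI-1 went from 4.05 ± 1.1 to 10.3 ± 3.6 CPM and EXL5 from 29.2 ± 3.6 to 45.6 ± 4.9 CPM. AT3G19680, a gene of unknown function, had the same smallest adjusted p as BT2, 1.51e-10, and went from 12.8, 11.7, 15.8 and 13.1 CPM to 34.5, 34.0, 38.5 and 29.1 CPM. Its log2 fold change was 1.35 ± 0.12, and it overlaps AT3G19690 on the other strand with an identical stretch of 101 bases at the transcript ends. BCB, a blue-copper-binding protein, AT1G02660, annotated as a hydrolase, MEE3, annotated as a homeodomain-like protein, and the uncharacterised AT3G06070 rose by 0.90 ± 0.12, 0.91 ± 0.13, 0.99 ± 0.20 and 0.66 ± 0.07. In the fit of 14 libraries AT3G19680 and MEE3 lost their calls, with adjusted p of 0.0653 and 0.339, at log2 fold changes of 1.35 and 0.99.

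Growth genes made up part of the falls. Of 12 tested genes of the expansin and auxin list, 2 fell, against 0.378% of all genes that fell, none rose and 11 lay below 0, with a median of -0.12 on the log2 scale. The 2 were expansins, which loosen cell walls. EXPA1 (AT1G69530) went from 145, 160, 144 and 163 CPM to 119, 109, 97.7 and 111 CPM, and EXPA8 (AT2G40610) from 111, 119, 108 and 125 CPM to 90.2, 86.0, 85.6 and 81.4 CPM. Neither pair of groups overlapped, the log2 fold changes were -0.49 ± 0.07 and -0.43 ± 0.07, and both calls held without any single library. DGR2, which codes for a DUF642 protein and overlaps AT5G25470 on the other strand, went from 327 ± 9.4 to 256 ± 17 CPM. AT2G21210, annotated as a SAUR-like auxin-responsive gene, went from 107, 86.7, 68.2 and 78.5 CPM to 60.6, 46.3, 44.3 and 50.1 CPM, but its adjusted p was 0.0493 and 5 of the 8 fits did not call it; it overlaps AT2G21200 on the same strand. The list of SAUR genes had 11 of 15 tested members above 0 and a median of 0.17. SAUR26, the 1 member called, was higher at 3 d, against 0.83% of all genes. PRE1, a bHLH factor that promotes elongation, was named after its values were seen, with 16.4 ± 1.0 and 10.6 ± 1.5 CPM, a call that 3 of the 8 fits lost.

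Falls also included genes of light responses, pigments and chloroplast gene expression, picked one by one. GLK2, a transcription factor of chloroplast development, had 118, 114, 117 and 114 CPM at 1 d and 84.1, 90.0, 93.3 and 84.0 CPM at 3 d, a log2 fold change of -0.40 ± 0.07 with an adjusted p of 0.00036. NCED4, a carotenoid cleavage dioxygenase, went from 88.1, 90.7, 91.0 and 97.2 CPM to 57.8, 69.1, 63.5 and 64.1 CPM, with a log2 fold change of -0.53 ± 0.08 and an adjusted p of 9.31e-06. Both calls held in each of the 8 fits without 1 library. SIGE, a sigma factor of the chloroplast's bacterial-type RNA polymerase, was named after its values were seen and fell from 19.4 ± 0.89 to 12.7 ± 1.3 CPM, while the 5 other sigma factor genes tested did not pass. COL2, a CONSTANS-like B-box gene, went from 27.4 ± 3.4 to 17.0 ± 1.8 CPM and overlaps genes on the other strand. Of 21 B-box genes tested, 3 fell (COL2, STO and STH) and 2 rose (BBX27 and BBX14), against 0.378% and 0.83% of all genes. The B-box family was also singled out after its values were seen. None of 30 nuclear photosynthesis genes passed the test, against 1.21% of all genes, and their median was -0.02.

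Counts on some loci of the chloroplast's own genome were lower at 3 d. The libraries come from a 3′ RNA-seq method, and how well it measures chloroplast transcripts was not tested. Of 82 tested loci with chloroplast codes, 10 fell, none rose and 62 lay below 0, with a median of -0.27 on the log2 scale and 0.378% of all genes as the background of falls. ATCG00380 went from 300, 288, 254 and 338 CPM to 173, 217, 158 and 185 CPM, a log2 fold change of -0.69 ± 0.09 with an adjusted p of 0.00036. ATCG00630, ATCG00530 and ATCG00280 fell by 0.98 ± 0.20, 0.66 ± 0.12 and 0.51 ± 0.09, and the annotation used here pairs none of these codes with a name. In the fit of 14 libraries ATCG00380 and ATCG00630 lost their calls, with adjusted p of 0.17 and 0.244. ATCG00020 averaged 359 and 121 CPM without overlap, the lowest log2 fold change of the 82 at -1.57 ± 0.32, and its adjusted p was 0.129, with 207 CPM in replicate 4 of EtOH_3d against 79.7 to 102 CPM in the other libraries of 3 d.

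Loci on one chloroplast transcript are read together, so these counts are not independent. The share of all counts on chloroplast loci was 1.531% to 2.276% at 1 d and 1.531% to 1.923% at 3 d, with an exact permutation p of 0.2. The number called lower ranged from 5 without replicate 3 of EtOH_3d to 14 without replicate 3 of EtOH_1d, and was 6 without replicate 4 of EtOH_1d and 11 without the shallow replicate 2 of EtOH_3d. It was 5 in the fit of 14 libraries and 15 with limma-voom or without the filter on low counts.

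**Figure D3:**
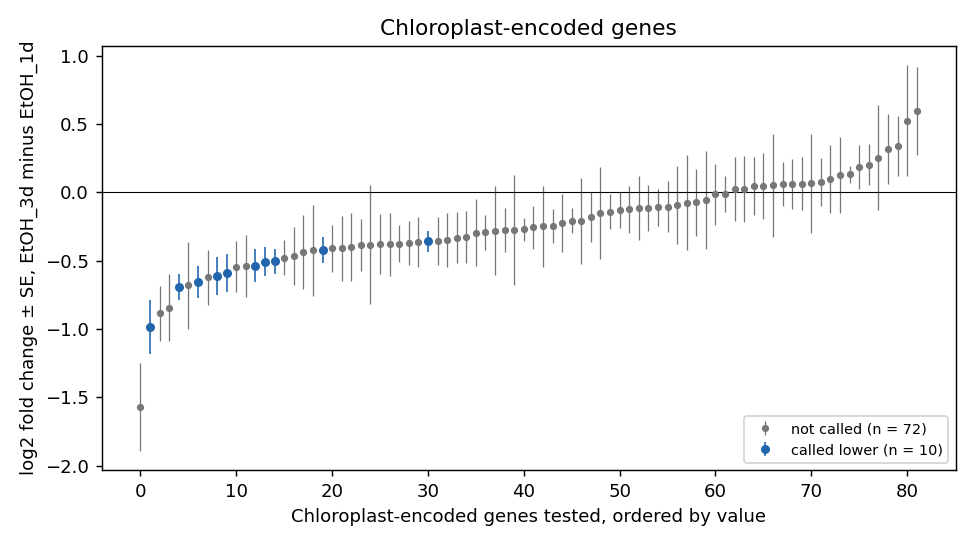
Log2 fold change with SE between EtOH_3d and EtOH_1d for the 82 chloroplast-encoded loci tested, in order of their value. The 10 loci called lower (blue) lie within the lower part of the order, and 62 of the 82 values are below 0.

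Single genes with large falls had varied roles. EBF1, the F-box protein that marks the ethylene factor EIN3 for destruction, went from 51.9, 58.5, 64.4 and 69.6 CPM to 33.0, 42.6, 33.5 and 44.8 CPM, a log2 fold change of -0.67 ± 0.10 with an adjusted p of 8.33e-05. Its partner EBF2 had a log2 fold change of 0.23 ± 0.09 and did not pass. HIS1-3, a linker histone that drought switches on, went from 29.3, 22.7, 27.2 and 24.4 CPM to 12.6, 9.91, 19.0 and 15.7 CPM. Of 44 histone family genes tested it was the only call, against 1.21% of all genes. AT2G15020, an uncharacterised gene, had the largest fall of the named genes, from 9.09 ± 1.1 to 3.91 ± 0.49 CPM, with a log2 fold change of -1.23 ± 0.21. AT1G70420, a DUF1645 gene, fell by 0.79 ± 0.14, and CML43, a calmodulin-like gene, had a log2 fold change of -0.93 ± 0.23 that 5 of the 8 fits did not call.

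Abscisic acid genes were called in both directions, and 1 cold-regulated gene was called lower. The abscisic acid list had a median of -0.12, with 13 of 19 tested members below 0 and 6 above. PP2CA and RD26 rose and GolS2 fell, against 0.83% and 0.378% of all genes. These 3 calls were close to the threshold, at adjusted p of 0.0474, 0.0476 and 0.0318, and were lost in 7, 6 and 7 of the 8 fits. The phosphatase gene PP2CA averaged 31.7 and 41.7 CPM, and the NAC factor gene RD26 14.6 and 20.6 CPM. Of 19 cold-regulated genes 1 was called, against 1.21% of all genes, namely RCI2A, a small membrane protein gene, at -0.24 ± 0.06. That call was lost in 6 of the 8 fits. RCI2A overlaps AT3G05870 on the other strand, and its groups overlapped. COR15A, which protects chloroplast membranes in the cold, had 89.1, 88.7, 129 and 151 CPM at 1 d and 75.8, 107, 88.3 and 137 CPM at 3 d. LTI78 (RD29A) had 28.6, 23.7, 30.9 and 29.7 CPM at 1 d and 20.8, 24.4, 25.0 and 34.8 CPM at 3 d. The groups overlapped in both genes, with log2 fold changes of -0.17 ± 0.27 and -0.11 ± 0.12.

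No gene of ethanol and acetate metabolism passed the test among 16 tested, where 1.21% of all genes passed, and the list median was 0.02. ADH1, the alcohol dehydrogenase, had 33.3, 33.1, 38.4 and 52.6 CPM at 1 d and 25.6, 23.3, 37.5 and 70.2 CPM at 3 d. The groups overlapped fully, the log2 fold change was 0.02 ± 0.38, and the sign turned under several settings, to -0.42 without replicate 4 of EtOH_3d. Aldehyde dehydrogenase genes ALDH2B4 and ALDH2B7 had log2 fold changes of -0.06 ± 0.07 and 0.13 ± 0.16, the acetyl-CoA synthetase gene ACS 0.03 ± 0.09, and isocitrate lyase (ICL) 0.59 ± 0.48 at an average of 2.48 and 3.95 CPM. None of 16 hypoxia genes, 17 heat shock genes, 14 unfolded protein genes, 11 redox genes and 22 clock genes was called. At a share of 1.21% over all genes, lists of this size would often hold no call.

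**Figure D4:**
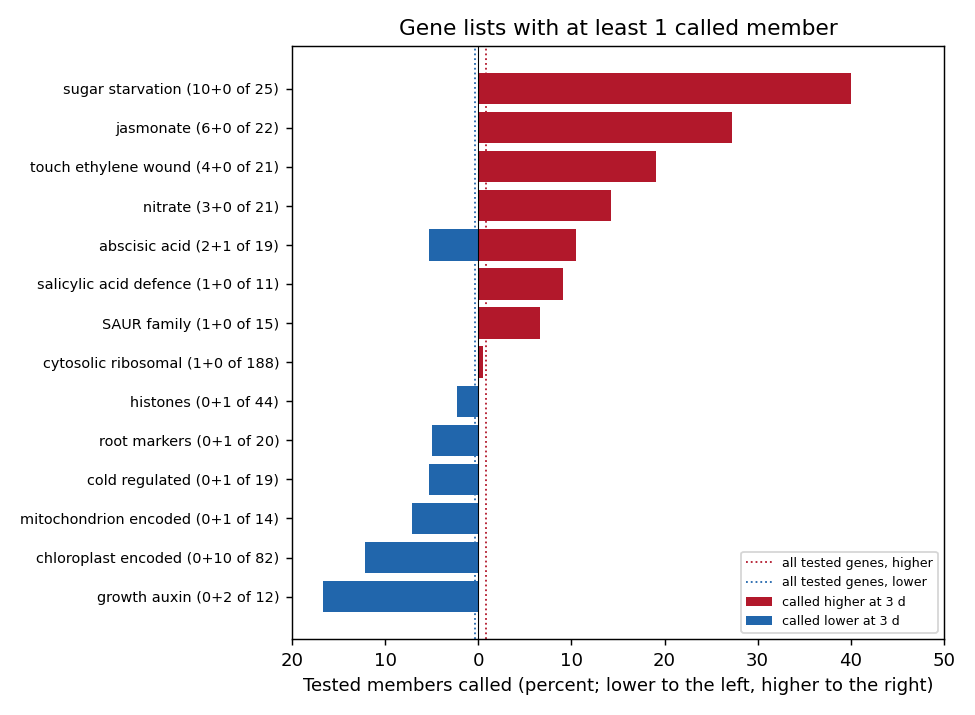
Percent of the tested members of each gene list called higher (red, to the right) or lower (blue, to the left) at 3 d, for lists with at least 1 called member; dotted lines mark 0.83% higher and 0.378% lower among all 17470 genes. The list of sugar starvation genes has the longest bar to the right (10 of 25), and growth and chloroplast-encoded genes have the longest to the left.

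The control seedlings give the same contrast of 3 d against 1 d without ethanol. One control column stood in the table under both durations with identical counts, so 3 libraries of moc_1d and 3 of moc_3d were used, in a fit of all 14 libraries. In these controls 155 of 18419 genes (0.842%) were called, 97 higher (0.527%) and 58 lower (0.315%). The 211 genes called in ethanol seedlings had the same sign in the controls in 196 cases, against 57.01% of all genes. Called in both with the same sign were 45 genes, which is 21.3% of the ethanol calls and 29.0% of the control calls, and none was called with opposite signs. The genes that rose in ethanol had a median of 0.31 in controls on the log2 scale against 0.50 in ethanol, and those that fell had -0.26 against -0.49. Genes chosen for passing in one comparison tend to show larger values there, so these medians are a description.

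Several of the genes described above were called in controls as well. JAZ7 had 1.23, 1.24 and 1.31 CPM in moc_1d and 11.7, 5.67 and 4.01 CPM in moc_3d, with a log2 fold change of 2.45 ± 0.36. BT5 had 42.6, 54.7 and 46.4 CPM and 77.2, 75.3 and 66.9 CPM, and its log2 fold change of 0.61 ± 0.10 was close to the 0.59 of the ethanol seedlings. TPS8, EXPA1 and GLK2 were also called in controls, at 0.54 ± 0.09, -0.50 ± 0.08 and -0.41 ± 0.08. The median of the jasmonate list was 0.51 in controls, with 5 members called, and that of the touch and ethylene list was 0.52, with none called. The nitrate list had a median of 0.19 in controls, with 4 members called. In ethanol seedlings its median was 0.10, with 3 called, also in the fit of 14 libraries. The chloroplast list had a median of -0.33, with 4 members called, where 0.842% of all genes were called in controls. Its locus ATCG00740 changed by 0.13 in ethanol seedlings and by -0.35 in controls. The edgeR test of that difference gave 0.47 ± 0.09 with an adjusted p of 0.0129.

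The sugar list lay lower in the controls, a difference between medians that was not tested. Its median was -0.02 there on the log2 scale, with 4 of 25 members called (BT2, AT3G15450, TPS8 and TPS11), against 0.30 and 10 members in ethanol seedlings. In that same fit of 14 libraries, 9 of the 25 were called in ethanol seedlings. DIN10 had 178, 182 and 183 CPM in moc_1d and 145, 186 and 175 CPM in moc_3d, which overlap. The difference between its change in ethanol and its change in controls was 0.58 ± 0.11 with an adjusted p of 0.0129, which became 0.0549 with limma-voom. That call was lost without replicate 4 of moc_1d, replicate 1 of moc_3d or replicate 3 of EtOH_3d, at adjusted p of 0.0516, 0.101 and 0.0529, with a difference of 0.49 or more in all 14 fits. BT1 had 62.4, 79.7 and 70.7 CPM and 73.7, 88.3 and 80.2 CPM in controls, and the test of its difference gave an adjusted p of 0.054. BXL1 and BGAL4 had control values of -0.18 ± 0.10 and -0.14 ± 0.11, and their differences did not pass, at adjusted p of 0.26 and 0.11.

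Over all genes, the difference of the 3 d against 1 d change passed for 8 of 18419 genes (0.0434%), and 3 of them are among the 211. Besides DIN10 these are MO1, a monooxygenase gene, with a difference of 0.58 ± 0.12 at an adjusted p of 0.05 after rounding, and GolS2, a galactinol synthase gene. GolS2 had 6.24, 4.14, 6.05 and 6.06 CPM in EtOH_1d and 2.96, 1.87, 3.30 and 3.00 CPM in EtOH_3d. In controls it went the other way, from 3.33, 3.20 and 2.13 CPM to 9.15, 3.60 and 5.95 CPM. That control change was 1.035 on the log2 scale and was not called by edgeR (adjusted p = 0.0715). The difference was -2.04 ± 0.40 with an adjusted p of 0.0161, and 4 of the 14 fits without 1 library lost it, with an adjusted p of 0.251 without replicate 1 of moc_3d. With limma-voom its adjusted p was 0.161, and DESeq2 gave none. MO1 kept its call in 4 of the 14 fits and had an adjusted p of 0.15 with limma-voom. Of the 8, only AT1G22890, outside the 211, kept its call in all 14 fits. Its difference was 0.79 ± 0.13 at an adjusted p of 0.00441, called also with DESeq2 and limma-voom. It changed by 0.31 in ethanol seedlings (not called) and by -0.48 in controls (called). RFNR2, AT2G05540 and ATCG00740 had differences of -0.66, 0.88 and 0.47 and kept their calls in 8, 6 and 11 of the 14 fits.

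Sulfur genes were chosen for mention after their values were seen. Of 14 tested members, 10 were called in controls in the fit of 14 libraries, against 0.842% of all genes. In that fit 1 was called higher in ethanol seedlings. In the fit of the 8 ethanol libraries none was called, and 1 was called without the filter, without replicate 4 of EtOH_1d or without replicate 3 of EtOH_3d. The medians were 0.59 in controls and 0.17 in ethanol seedlings on the log2 scale. The difference itself passed for 1 of them, LSU1, a gene that sulfur shortage switches on, at -1.36 ± 0.27 with an adjusted p of 0.0287. LSU1 had 11.5, 8.97 and 7.38 CPM in moc_1d and 27.6, 16.9 and 16.3 CPM in moc_3d, and averaged 13.1 and 10.9 CPM in the ethanol seedlings. It kept that call in 5 of the 14 fits without 1 library, its adjusted p was 0.145 with limma-voom, and DESeq2 gave none.

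**Figure D5:**
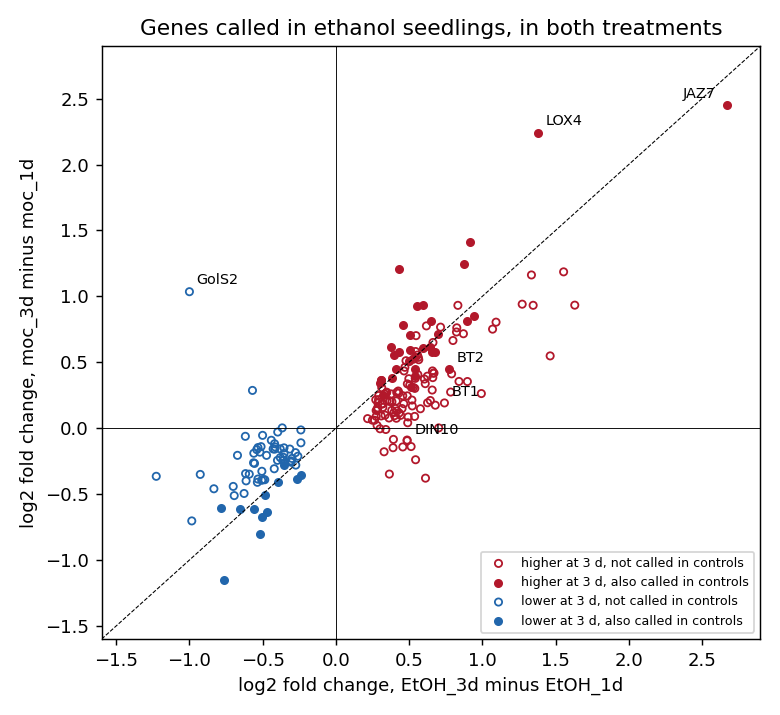
Log2 fold change of 3 d against 1 d in ethanol seedlings (horizontal axis) and in control seedlings (vertical axis) for the 211 genes called in ethanol seedlings; filled points are the 45 also called in controls and the dashed line marks equal values. Most points lie in the quadrants of equal sign, GolS2 lies opposite, and DIN10 lies near the zero line of the controls.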

How the data were processed

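RNA from whole seedlings was sequenced by the Lasy-Seq method, per the labels' protocols; Lasy-Seq is known as a 3′ RNA-seq method. The authors deposited whole-number read counts for 27416 genes. Per the submitters' processing notes, the tools were featureCounts, HISAT2, Trimmomatic, bcl2fastq and DESeq2, without versions, and the build TAIR10. Whether the counting used strand is not stated in the sources used here.

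Counts were tested with edgeR 4.0.16 (R 4.3.3): filterByExpr by group, TMM scaling and a robust quasi-likelihood fit of the 8 ethanol libraries, two-sided, Benjamini-Hochberg adjusted over all genes tested, with a threshold of 0.05. Standard errors were derived from the test statistic, and CPM are counts per 1000000 of the TMM-scaled library. The biological coefficient of variation was 9.08%. The scripts were tested on simulated data. A fit of 14 libraries gave the control contrast and the difference of the changes; the columns moc_1d replicate 1 and moc_3d replicate 3 are identical in all 27416 genes (6209714 counts), values were not used to say which label is right, and both were left out.

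Gene lists and members were chosen with earlier results of these data known, so no list was tested and none is independent support. Named genes are, among called genes whose groups did not overlap and that averaged 5 CPM or more, the 10 largest rises and falls and the 5 further rises and falls with the smallest p; then up to 4 called members (smallest p) of each list that had at least 2; and ADH1, AT3G15450, DIN10, BT2, COR15A and LTI78. Every other gene was picked with its values in view. Names and coordinates come from RefSeq's TAIR10.1, which holds 26719 of the codes. Of the 211 called genes, 41 overlap another counted gene and 13 share at least 100 bases at 95% identity with another transcript's last 500 bases (BLAST 2.17.0). Alternatives were RLE scaling, library totals, other filters, DESeq2 1.42.0, limma-voom (limma 3.58.1), a replicate block, counts thinned to the smallest total, and leaving out each library.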

Additional observations from a re-analysis of the deposited data

Results flagged for a closer look

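In 106 groups of 4 libraries, 6 had a highest or lowest library far from the other 3 (Dixon's test), and chance flags about 1 in 20 groups. In EtOH_3d, replicate 2 stood above the rest for TIFY7 (30.5 CPM) and JAZ6 (76.3 CPM), and replicate 4 for ERF11 (4.94 CPM). In EtOH_1d, replicate 4 stood below the rest for BCB (15.3 CPM) and replicate 2 for GolS2 (4.14 CPM), while the share of counts on mitochondrial loci was highest in replicate 2, at 0.0102%. Without replicate 2 of EtOH_3d the calls of TIFY7 and JAZ6 held.

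The change from 1 d to 3 d differed between ethanol and control seedlings by 0.58 on the log2 scale for DIN10 and by -2.04 for GolS2, in the edgeR test of the difference. The part of the starting age in these values was not tested.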

How the results depend on the processing

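Of the 211 genes called between EtOH_3d and EtOH_1d, 210 were called with RLE scaling, 191 with library totals, 211 without the filter on low counts, 203 with a minimum mean of 5 CPM, 180 with DESeq2, 161 with limma-voom, 168 in the fit of 14 libraries and 139 in thinned counts, where 161 genes were called in all. The number of falls, 66, became 116 without the filter. Without 1 library, 154 to 189 genes were called, 109 to 135 higher and 43 to 61 lower, with 43 lower without replicate 3 of EtOH_3d. In controls the 155 calls became 283 without the filter and lay between 67 and 158 without 1 library, namely 67 when moc_3d lost replicate 1, and 74 and 85 when moc_1d lost replicate 2 and replicate 4. The 8 calls of the difference became 47 without the filter, 16 with DESeq2 and 2 with limma-voom, and lay between 1 and 23 without 1 library: leaving out EtOH_3d replicates 1, 3 and 4 gave 4, 1 and 15, leaving out moc_3d replicates 1 and 2 gave 2 and 23, and moc_1d replicate 4 and EtOH_1d replicate 1 gave 1 and 5. The cause was not tested. Of the named genes, ADH1 changed sign, to -0.004 with DESeq2, -0.069 with limma-voom, -0.067 with the replicate block, -0.034 in thinned counts and 3 of the 8 fits without 1 library turned it, with a range of -0.423 to 0.192. All other named genes kept their sign.

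The deviations of libraries with the same replicate number correlated by 0.0019 to 0.0626, and those of libraries with different numbers by -0.0377 to 0.0388. Whether the numbers pair the libraries was not tested. With the replicate number as a block, 253 genes were called, 166 higher and 87 lower, 200 of them among the 211. The block gave 146 calls in controls and 10 for the difference, and in ethanol seedlings 21 chloroplast loci lower and 1 sulfur gene higher. Depth limits low genes: 3 counts are up to 0.812 CPM, so JAZ5, LOX4 and ERF11 rest on few counts.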
